A study of Mus musculus with 6 samples.

Results

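ATF4 binding after leucine starvation was compared between wild-type (WT) and GCN2 knockout (KO) mouse embryonic fibroblasts (MEFs), primary cells of the 129S6/SvEvTac strain. The WT cells carried an intact GCN2 gene and the KO cells were GCN2-/-, and both were kept for 24 h in medium without leucine (-Leu). Each condition had 1 ATF4 ChIP-seq library. Its chromatin came from 2 independent experiments, with 5 or more replicates in each, that were pooled. Both libraries were set against the input DNA of leucine-fed (+Leu) cells of the same genotype. The comparison took all 9046 peaks of these 2 lists, of 17462 in the 4 lists of the series: 6374 peaks in WT -Leu and 2672 in GCN2 KO -Leu. A WT and a KO peak were counted as 1 matched site when their centers lay 300 bp or less apart, which left 81 matched sites, 6293 peaks listed only in WT and 2591 listed only in the KO. Peak lists give no signal at sites that were not called, so they could not be used to check the loss of GCN2 or the fibroblast identity of the cells. With 1 library a side, no difference between the genotypes has a replicate check and no test was made.

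GCN2 is a kinase that is switched on by uncharged tRNA when an amino acid runs short. It phosphorylates the translation factor eIF2α, which lowers protein synthesis in general and raises the translation of ATF4. ATF4, a bZIP transcription factor, pairs with members of the C/EBP family and binds a composite element, the C/EBP-ATF response element (CARE), whose usual core is TGATGCAA. Its known targets supply amino acids to the cell: enzymes of amino acid synthesis, amino acid transporters and the synthetases that charge tRNA, together with other stress regulators and feedback inhibitors of the same pathway.

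The sequences at the following sites show the element on which the comparison turned. Each is a stretch of 30 bases of the mouse reference genome (GRCm38, the assembly that mm10 names, which comes from another strain), read 5′ to 3′ on the strand that carries the element, with the TGATGNAA core in capitals. The first 4 come from sites listed in both genotypes, the next 5 from sites listed only in WT and the last from a peak listed only in the KO.
Chac1, chr2:119351038-119351067, minus strand, promoter: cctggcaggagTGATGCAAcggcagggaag
Creb3l1, chr2:92055592-92055621, minus strand, intergenic: tgcttgctgtcTGATGCAAcagtttgcaac
Asns, chr6:7693214-7693243, minus strand, promoter: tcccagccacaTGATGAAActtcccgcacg
Tgif1, chr17:70837059-70837088, minus strand, intergenic: tttgagcagcgTGATGAAAtctcatgcaac
Ciapin1, chr8:94825329-94825358, plus strand, intron: atcctggagagTGATGCAAacacttagcaa
Kdm6b, chr11:69414536-69414565, plus strand, promoter: tctggcctccaTGATGCAAtgcactgcaag
Shmt2, chr10:127521946-127521975, minus strand, intron: agctatggagaTGATGCAAccgagcctcag
Ddit3, chr10:127290481-127290510, minus strand, promoter: gggggcggggaTGATGCAAtgtttggcaac
Larp1, chr11:58008742-58008771, minus strand, promoter: gagcacgtgccTGATGCAActtcggagggc
Rps6kc1, chr1:190638602-190638631, minus strand, intergenic: gtgacattgccTGATGCAAcattcaatcca
The sites were printed because they carry the element, so they do not show how often each class holds it. Rps6kc1 is 1 of only 8 KO-only peaks, of 2580 searched, with TGATGCAA. Asns and Tgif1 carried TGATGAAA in place of TGATGCAA.

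Few sites were listed in both genotypes without leucine. The 81 matched sites were 1.27% of the WT peaks (95% Wilson interval 1.02 to 1.58, which like all intervals here covers counting error only) and 3.03% of the KO peaks (2.45 to 3.75). Those 2 shares are the background for every count of matched sites that follows. The peak score is the peak caller's, a whole number from 13 up, with an unstated scale and no normalization between libraries, so it was used to order peaks within a list and its values in the 2 lists are given side by side. The highest score was 2628 in WT and 353 in the KO, whereas the median was 30 in both lists. Read depth could not be taken from the lists, so that the part of depth in the number and the scores of KO peaks was not tested.

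The share of matched peaks was highest at the top of both lists. Of the 10 WT peaks with the highest scores, 7 had a KO partner, and of the top 25, 15 did. Among the 27 WT peaks that scored 1000 or more, 16 (59.3%, 40.7 to 75.5) were matched. The share fell to 9 of 66 (13.6%, 7.34 to 23.9) from 500 to under 1000 and to 7 of 210 (3.33%, 1.62 to 6.72) from 200 to under 500. At scores under 30, 11 of 2642 WT peaks (0.416%, 0.233 to 0.744) had a partner. So the strongest WT sites were matched well above the 1.27% of the whole list, and the 2642 weakest below it.

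The KO list showed the same order. All 5 KO peaks with a score of 200 or more were matched, as were 7 of the 8 that scored 100 to 199. At 50 to 99 the count was 21 of 118 (17.8%, 11.9 to 25.7), against a background of 3.03%, and at scores under 30 it was 20 of 1280 (1.56%, 1.01 to 2.40). The highest-ranked 10% of the KO list held 42 of the 81 matched sites, and the highest-ranked 10% of the WT list held 40.

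**Figure D1:**
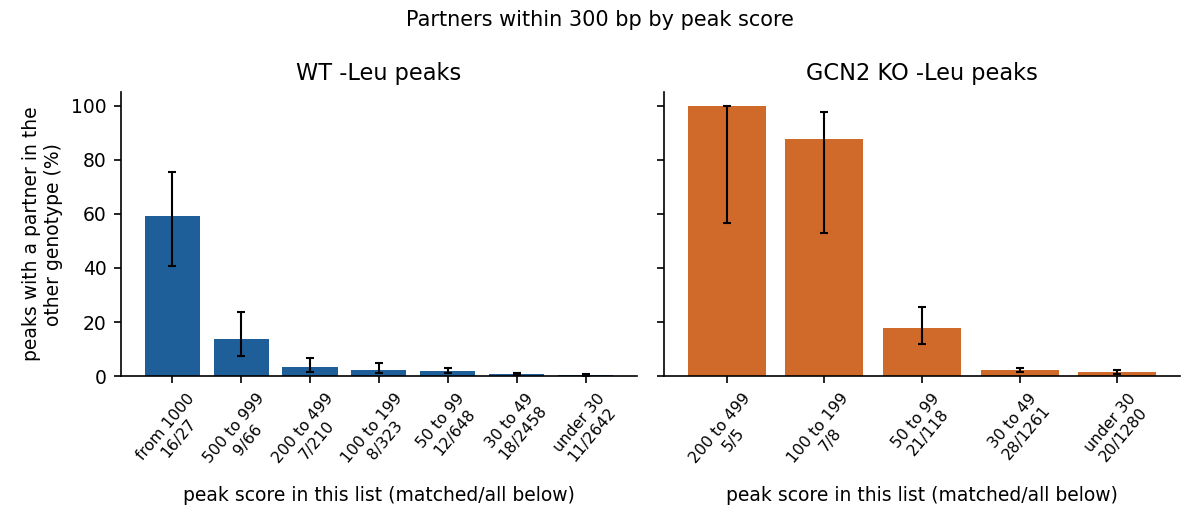
Share of peaks with a partner in the other genotype (y axis, %) by peak score (x axis), for the WT -Leu list on the left and the GCN2 KO -Leu list on the right; whiskers are 95% Wilson intervals and the numbers under each bar are matched and all peaks. The share was highest for the strongest peaks of each list (16 of 27 in WT, 5 of 5 in the KO) and under 2% for peaks that scored under 30.

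Of the 12 matched sites with a KO score of 100 or more, 8 scored 1000 or more in WT. Tgif1, which encodes a homeodomain repressor, had the top KO peak, which scored 353 in the KO and 1391 in WT. It was an intergenic site 9711 bp downstream of the annotated start, labelled as a DNA transposon. An intergenic site at -31433 bp from the start of Creb3l1, a bZIP factor of the endoplasmic reticulum (ER) membrane, came next, with 228 in the KO and 1066 in WT. The site in an intron of Ubr2, a ubiquitin ligase of the N-degron pathway, scored 222 in the KO and 2249 in WT. These 3 sites ranked 1 to 3 in the KO and 12, 23 and 4 in WT. The intergenic site of Klhdc4, which ranked 3 in WT with 2319, scored 132 in the KO.

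Sites close to genes followed. Mthfd2, an enzyme of mitochondrial one-carbon metabolism, had an intronic site 440 bp from its start that scored 208 in the KO and 1058 in WT. The site of Atf5, a bZIP relative of ATF4, scored 205 in the KO and 1569 in WT. Chac1, which degrades glutathione, had a promoter site at 184 in the KO and 2515 in WT. Yars, the synthetase for tyrosine, scored 120 in the KO and 1098 in WT, so its site and those of Mthfd2, Atf5 and Chac1 were among the 11 strongest KO peaks and the 24 strongest WT peaks.

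Other strong WT sites had KO scores of 20 to 44. The Asns promoter site (asparagine synthetase) ranked 6 in WT with a score of 1787 and 311 in the KO with a score of 41. Acot2, a mitochondrial acyl-CoA thioesterase, scored 1676 in WT and 44 in the KO. Cebpg, which encodes a C/EBP partner of ATF4, scored 559 in WT and 20 in the KO, rank 2312. A distal site 9079 bp into Slc7a5, the light chain of the leucine transporter LAT1, scored 1171 in WT and 37 in the KO. The 3 KO peaks of Asns, Acot2 and Cebpg lay 55, 26 and 40 bp from the WT centers, so they marked the same sites. By percentile within the KO list the peaks of Acot2, Asns and Slc7a5 stood at 91.4, 87.1 and 83.1, and that of Cebpg at 9.51.

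Between these extremes stood further genes of amino acid supply and stress. Psat1 (serine synthesis) scored 1050 in WT and 66 in the KO. Aars, the alanine synthetase, scored 893 and 54. Sars, the serine synthetase, scored 559 and 62. Ppp1r15b, the constitutive subunit of the eIF2α phosphatase, had a promoter site at 372 in WT and 66 in the KO. In each of these 4 genes the WT score was the higher. By percentile within its own list, only Ppp1r15b of the 4 stood higher in the KO (97.8 in WT, 98.7 in the KO). Other common genes of high WT score included Arl14ep (1582 in WT, 62 in the KO), Gm5627 (1238 in WT, 39 in the KO), 4930543E12Rik (972 and 59), Rcc2, a mitotic regulator (554 and 59), Gm14164 (477 and 44) and Eif1, a factor of start codon choice (239 and 20). Lower down came Mir7001 (115 and 25), Lmo4 (96 and 48) and Eef1a1, the translation elongation factor (66 and 44).

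Over all 81 matched sites the score was higher in WT at 63, equal at 1 and higher in the KO at 17. When each score was replaced by its percentile within its own list, 47 sites stood higher in WT and 34 in the KO. Across the 81 sites the Spearman correlation of the 2 scores was 0.56, a description only, since both scores at a site share its sequence and mappability.

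The 81 sites were also divided by their WT score at 100, a limit that few KO peaks reached and that largely sets which score is the higher. In the 40 sites at or above it the WT and KO centers were a median of 19 bp apart. Of these 40, 36 were also listed in WT +Leu and 27 in GCN2 KO +Leu. In the 41 with a lower WT score the centers were a median of 100 bp apart. In this set 8 of the 41 were in the WT +Leu list and 7 in the KO +Leu list. The weaker matched sites were pairs of less closely aligned peaks, with a median score of 40 in WT and 36 in the KO. Just inside the 300 bp limit lay a pair at Tmem120a, 296 bp apart with scores of 38 in WT and 23 in the KO, and just outside it pairs near Zfp318 at 304 bp (37 and 20) and Mir3078 at 319 bp (38 and 16).

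**Figure D2:**
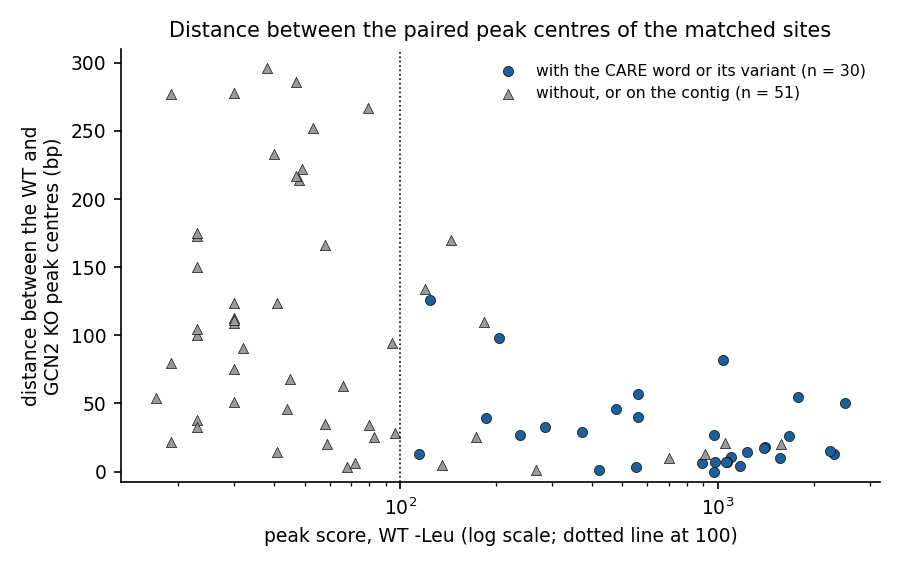
Distance between the WT and GCN2 KO peak centers in bp (y axis) against the WT -Leu score (x axis, log scale) for the 81 matched sites; circles have the CARE core or its variant with another base at position 6, triangles have neither or lie on the contig. The 40 sites right of the dotted line (score 100) had a median distance of 19 bp, the 41 on the left 100 bp.

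A few matched sites departed from this order. The site at -50 bp from the start of Sfi1, a centrosome gene, scored 145 in WT and 190 in the KO, the only 1 of the 40 stronger sites with the higher score in the KO. An intergenic site assigned to Axin2, in a repeat labelled as large-subunit ribosomal RNA, scored 267 in WT and 146 in the KO. An intergenic site assigned to Rpp21, which encodes a subunit of ribonuclease P, scored 135 in WT and 107 in the KO. On an unplaced contig 3 sites scored 120, 80 and 72 in WT and 64, 93 and 101 in the KO. The core was not found at Sfi1, Axin2 or Rpp21, and the contig was not searched. All of these sites but that of Rpp21, which was in the WT +Leu list alone, were in both +Leu lists.

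**Figure D3:**
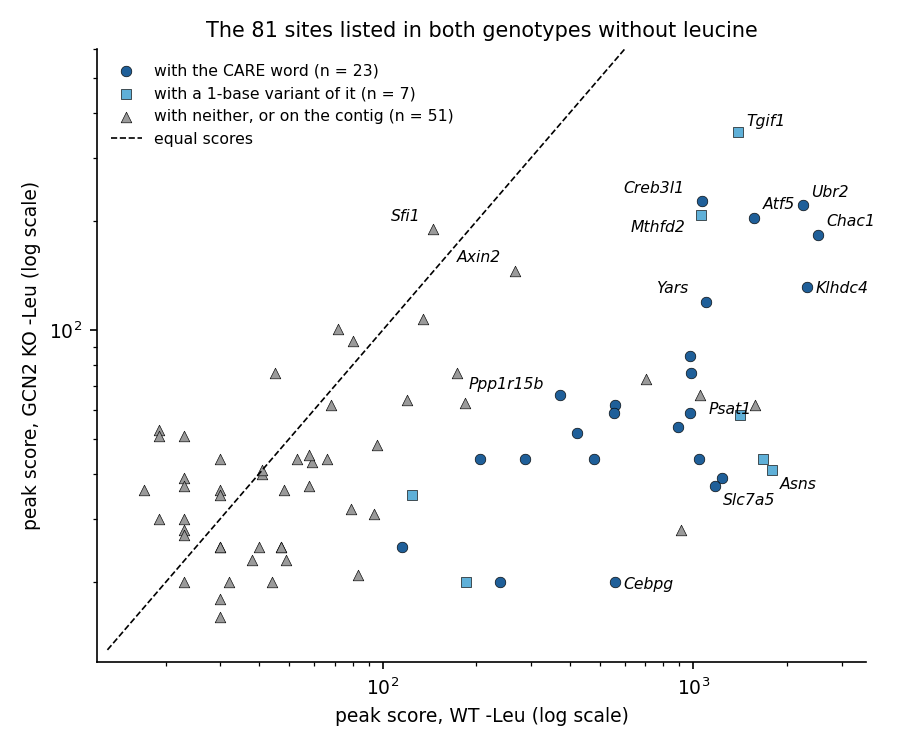
Peak score in GCN2 KO -Leu (y axis) against WT -Leu (x axis), both on log scales, for the 81 matched sites, with the line of equal scores dashed. All 30 sites with the CARE core or its variant lie below the line, whereas the 51 others lie on both sides of it.

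Over all scores, the CARE core was most frequent at matched sites and rare in KO-only peaks. TGATGCAA, on either strand and within 50 bp of the peak center, was present at 23 of 78 matched sites on assembled chromosomes (29.5%, 20.5 to 40.4), at 419 of 6284 WT-only peaks (6.67%, 6.08 to 7.31) and at 8 of 2580 KO-only peaks (0.310%, 0.157 to 0.611). In windows of the same length 1 kb to either side of the centers, it was found at 0.223% for the WT-only peaks and 0.252% for the KO-only peaks. In the 156 flanks of the matched sites it was absent, which allows a share of up to 1.92%. The intervals of the matched and WT-only classes lay above their flanks and that of the KO-only class held its flank value. Over the whole 301-bp windows the core was in 32.1% of matched, 8.77% of WT-only and 0.620% of KO-only peaks, while 0.895% of 32851 RefSeq promoter windows of 300 bases on GRCm38 held it.

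The core was more frequent at higher scores, so the classes were also set side by side by score. Among WT-only peaks the core was present at 214 of 584 (36.6%, 32.8 to 40.6) with scores of 100 or more, at 121 of 635 (19.1%, 16.2 to 22.3) with 50 to 99, at 62 of 2436 (2.55%, 1.99 to 3.25) with 30 to 49 and at 22 of 2629 (0.837%, 0.553 to 1.26) below that. At matched sites it was present at 23 of 39 (59.0%, 43.4 to 72.9) with WT scores of 100 or more and at 0 of 39 with lower scores, which allows a share of up to 7.69%. All matched sites with the core thus had WT scores of 100 or more. That bin has no upper limit, and the 40 matched sites of such scores had a median of 901 in WT. It therefore does not level score between matched and WT-only peaks. No KO-only peak on an assembled chromosome reached 100. At 50 to 99, 0 of 97 KO-only peaks had the core, which allows a share of up to 3.09%, and at 30 to 49, 3 of 1225 did (0.245%, 0.0833 to 0.718). From 30 to 99 the intervals of the WT-only and KO-only peaks lay apart, with the core more frequent in WT, and below 30 they overlapped (5 of 1258 in the KO, 0.397%, 0.170 to 0.927).

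**Figure D4:**
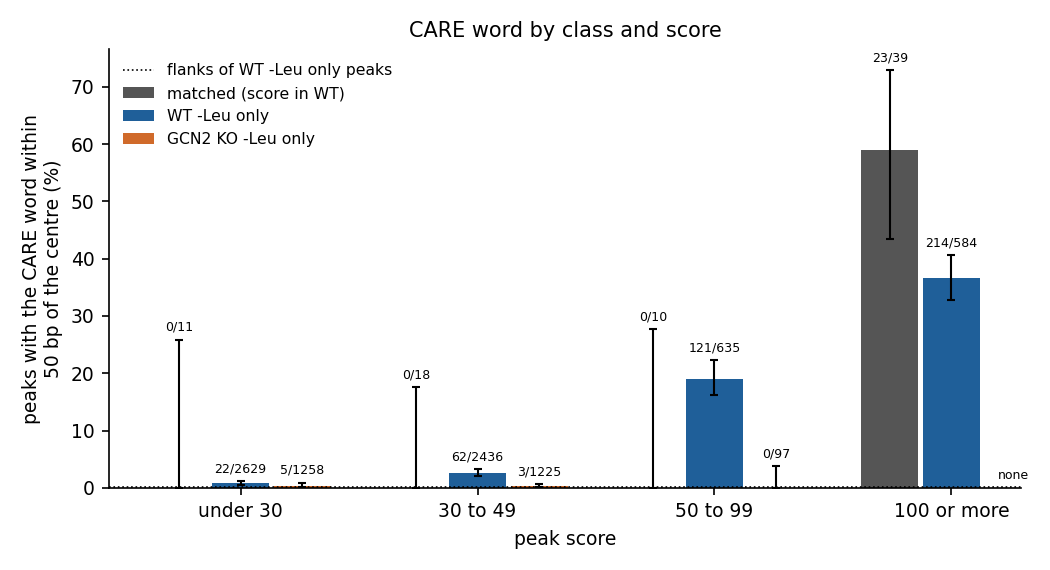
Share of peaks with the CARE core within 50 bp of the center (y axis, %) by score (x axis) for matched, WT-only and KO-only peaks; whiskers are 95% Wilson intervals, the fractions are peaks with the core and all peaks, and the dotted line is the share in the flanks of WT-only peaks (0.223%). The share rises with score in WT-only peaks to 36.6%, while KO-only peaks hold 0 of 97 at scores of 50 to 99.

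Most KO peaks with the core had a WT partner. In the KO list 29 peaks held it, and 21 of them (72.4%, 54.3 to 85.3) were matched, compared with 57 of 2629 without it (2.17%, 1.68 to 2.80). These KO peaks also differed in score, with a median of 48 with the core and 30 without it. At KO scores of 100 or more, 6 of 6 with the core and 5 of 5 without it were matched. In the WT list 442 peaks held the core, and 23 of them (5.20%, 3.49 to 7.69) were matched, compared with 55 of 5920 without it (0.929%, 0.715 to 1.21). Among WT peaks of 500 or more the shares were 16 of 51 with the core (31.4%, 20.3 to 45.0) and 9 of 42 without it (21.4%, 11.7 to 35.9), and the intervals overlapped. At the 23 matched sites with the core, the WT score was higher at all 23, with medians of 972 in WT and 59 in the KO. It was also higher at 39 of the 40 matched sites with WT scores of 100 or more, the set that holds all 23. Every one of the 23 was also in the WT +Leu list, and 17 were in the KO +Leu list.

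A core with another base at position 6 was searched as well. TGATGNAA was present at 30 of 78 matched sites (38.5%, 28.4 to 49.6), 669 of the WT-only peaks (10.6%, 9.91 to 11.4) and 34 of the KO-only peaks (1.32%, 0.945 to 1.84), with flank values of 1.28%, 1.38% and 1.59%. Asns, Mthfd2 and Tgif1 carried TGATGAAA. Arl14ep and Psat1 were strong matched promoters without either form within 50 bp. Within the 301-bp windows the TGATGCAA core lay a median of 12 bp from the center at matched sites, 20.5 bp at WT-only peaks and 64.5 bp at KO-only peaks.

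The 8 KO-only peaks with the core scored from 20 to 48. The strongest, at rank 135 of the KO list, was the intergenic Rps6kc1 site shown above, in a DNA transposon. Only those of Ypel3 (587 bp from the start) and B3gnt7 (-4783 bp) lay within 5 kb of a start site, scoring 23 and 20. None of the 8 was in a +Leu list.

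The classes also differed in where they lay. Promoter peaks, counted by their annotation or by a distance of at most 1 kb from a transcription start site (TSS), made up 16 of 81 matched sites (19.8%, 12.5 to 29.7), 419 of 6293 WT-only peaks (6.66%, 6.07 to 7.30) and 112 of 2591 KO-only peaks (4.32%, 3.60 to 5.18). Introns held 38.3%, 45.5% and 42.7% of the 3 classes, and intergenic sequence 43.2%, 40.7% and 42.6%. The promoter share rose with score among WT-only peaks, from 5.02% under 30 to 9.13% at 50 to 99. Among KO-only peaks it did not, with 5.25% under 30, 3.35% at 30 to 49 and 5.15% at 50 to 99. At WT scores of 100 or more it was 30.8% of matched sites (18.6 to 46.4) and 16.6% of WT-only peaks (13.8 to 19.8), with overlapping intervals. Most sites of each class were not at promoters. A repeat label was carried by 17.3%, 22.0% and 21.8%, and a stretch of 50 bases that occurs more than once in the assembled genome by 6.41%, 3.13% and 3.14%.

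Sites listed only in WT included the strongest peak of either list. It lay in an intron of Ciapin1, a cytosolic iron-sulfur assembly factor, 13002 bp from the start, scored 2628, held the core and was in none of the other 3 lists. Kdm6b, a histone H3 lysine demethylase, had a promoter peak of 1791. Paqr3, a Golgi membrane protein, had an intronic peak of 1441. Further strong WT-only peaks lay far from genes, at -294011 bp from Acvr2a (1340) and at -40181 bp from Gap43 (1251).

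The 586 WT-only peaks with a score of 100 or more were set against the +Leu lists. Of these, 155 (26.5%, 23.0 to 30.2) were also listed in WT +Leu and 39 (6.66%, 4.91 to 8.97) in GCN2 KO +Leu. The peaks in the KO +Leu list were thus called in KO cells with leucine and not without it. They included Eif4ebp1 (500 in WT -Leu, 211 in KO +Leu), Hspa9, a mitochondrial chaperone (956 and 163), Kdm6b (1791 and 128) and Shmt2, the mitochondrial serine hydroxymethyltransferase (1121 and 120). Ddit3, encoding the stress factor CHOP, scored 736 in WT -Leu and 40 in KO +Leu. Among WT-only peaks of all scores, 95.2% were in neither +Leu list, compared with 40.7% of matched sites and 96.5% of KO-only peaks.

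Peaks listed only in the KO scored at most 123, and several of the strongest lay in repeats. The strongest, at 123, lay on an unplaced contig that also held matched sites. The next were a peak in the 45S ribosomal RNA gene Rn45s (96), a gene that WT peaks also marked at other sites, and a peak in an intron of Cdk8 labelled as a large-subunit ribosomal RNA repeat (96). A SINE in an intron of Ybx3 scored 85 and was also in the KO +Leu list. The promoter of Cdhr2, a protocadherin of the intestinal brush border, and an LTR in an intron of Kazn scored 76 each. None of these 6 held the core, although the contig was not searched.

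By gene, 1111 genes had a WT peak within 5 kb of the TSS and 413 had a KO peak, with 58 in common. The common genes were 5.22% of the WT target genes (4.06 to 6.69) and 14.0% of the KO target genes (11.0 to 17.7), which are the background for the common genes of the lists below. At 27 of the 58 the peaks were a matched site, and at 31 they lay at different sites of the gene. Those 31 were mostly weak in both lists, as at Nr2e1 (34 in WT, 27 in the KO). Exceptions were Rn45s, with 250 in WT and 96 in the KO, and Lgals6, with 745 in WT and 17 in the KO. Among the 43 genes with a WT score of 500 or more, 15 (34.9%, 22.4 to 49.8) were also KO target genes, and among the 64 that scored from 200 to under 500, 4 were.

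The remaining 1053 genes had a WT peak alone, and 106 of them held the core in it. A WT score of 100 or more was reached by 157 of them. The 15 with the highest scores ran from Kdm6b at 1791 to 4930563F08Rik at 646. Btf3l4 had a promoter peak of 1206, Nfe2l1, a bZIP regulator of proteasome genes, an intronic peak of 974, and Ppp1r15a, the inducible eIF2α phosphatase subunit GADD34, a peak of 1129 at the gene's end. Herpud1, a component of ER-associated degradation, scored 866 and Soat2, which esterifies cholesterol, 849. The others of the 15 were Paqr3, Shmt2, Hspa9, Ddit3, Trp53cor1 (701), Rin1 (677), Phyhd1 (676) and Iars (662).

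A KO peak alone was found at 355 genes, of which 2 held the core and none reached a score of 100. Cdhr2 (76), Gm11562 (72) and Clec11a (69), a secreted growth factor of the C-type lectin family, had the highest scores. The next were 4930478P22Rik and Egfem1 (62 each), Gpx5 (61), Gatsl3 (59), Neurod1 and Pramef12 (53 each) and Dennd2a (52). Of these 10 genes, Gatsl3, listed elsewhere as Castor1 and known as an arginine sensor of mTORC1, belonged to a list described below.

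Lists of genes from pathways tied to ATF4 or to amino acid stress were then counted, with the caution that they were chosen with results of these data known. Over the 173 genes of the lists, each counted once, 61 had a WT peak within 5 kb, 13 a KO peak and 10 both. The 10 common genes were 16.4% of the 61, beside 5.22% over all WT target genes. The WT scores of the 61 had a median of 245, beside 31 over all WT target genes, and genes with high WT scores were matched more often over the whole list too. Of 21900 protein-coding genes in RefSeq, 4.40% had a WT peak within 5 kb and 1.61% a KO peak, so that a list of 10 to 21 genes with 0 or 1 KO peaks stands near the background and says nothing about its genes.

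Cytosolic aminoacyl-tRNA synthetases, which charge tRNA for translation, had a WT peak at 14 of 21 genes and a KO peak at 3, all of them common: Yars, Aars and Sars. The 11 listed only in WT were led by Iars (662), Mars (621) and Gars (543), followed by Wars (360), Lars (278), Nars (183) and Eprs (170). Cars (151), Tars (127), Vars (126) and Rars (83) were the lowest. Of these 11, 6 (Iars, Mars, Gars, Wars, Lars and Nars) were listed at the same site in GCN2 KO +Leu, with scores from 29 to 47. The KO thus had without leucine a peak at a minority of the synthetases bound in WT. Of those 3, Yars (1098) and Aars (893) had the highest WT scores of the list, while Sars (559) ranked below Iars and Mars. Among WT target genes as a whole, 15 of 43 that scored 500 or more were KO target genes, and 4 of 64 from 200 to under 500. These 3 calls therefore do not set the synthetases apart. Of the 17 mitochondrial synthetases none had a WT peak, and Vars2 had a KO peak (25). With a WT peak at 4.40% of all protein-coding genes, 0 of 17 stands near the background.

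Enzymes of amino acid synthesis and one-carbon metabolism had a WT peak at 13 of 18 genes and a KO peak at 3: Asns, Mthfd2 and Psat1. Those listed only in WT were Shmt2 (1121), Gpt2, an alanine transaminase (536), Phgdh, the first enzyme of serine synthesis (212), Aldh18a1 (179), Aldh1l2 (173) and Got1 (152), and also Mthfd1l (144), Pycr1 (118), Bcat1 (112) and Cth (48). Of these 10, Shmt2 was also listed in KO +Leu. Of the serine synthesis enzymes, Psat1 (1050 in WT) was listed in the KO without leucine and Phgdh (212 in WT) was not. Over all WT target genes, 15 of 43 that scored 500 or more were KO target genes. From 200 to under 500, 4 of 64 were, so these 2 calls do not set the enzymes apart. In mitochondrial folate metabolism Mthfd2 was listed and Shmt2 was not, at WT scores of 1058 and 1121.

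Amino acid transporters had a WT peak at 7 of 16 genes and a KO peak at 1, and none in common. The 7 were Slc7a1, a cationic amino acid transporter (517), Slc3a2, the heavy chain of LAT1 (347), Slc38a2, which carries neutral amino acids (245), Slc1a4 (160), Slc6a9 (115), Slc38a7 (107) and Slc7a11, the cystine exchanger (77). The KO peak was at the Slc7a5 promoter, 552 bp from the start, and scored 19. Slc7a5 had no WT peak within 5 kb, but its intronic site at 9079 bp was matched. Slc7a1, Slc38a2 and Slc1a4 were listed in KO +Leu (77, 34 and 28).

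**Figure D5:**
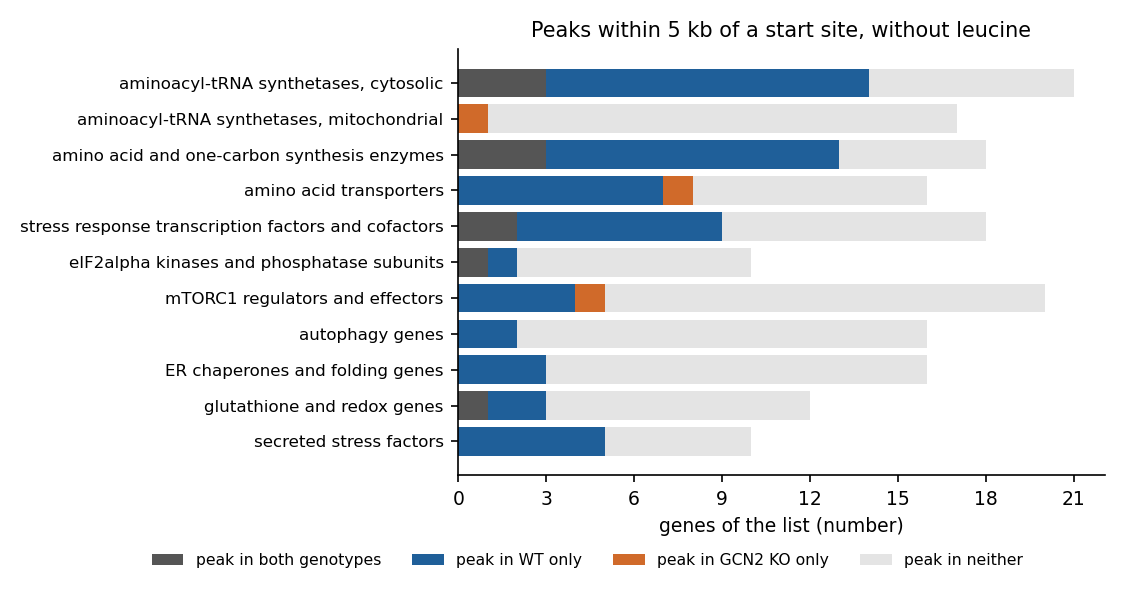
Number of genes (x axis) of each list (y axis) with a peak within 5 kb of a start site in both genotypes, in WT only, in GCN2 KO only or in neither, without leucine. WT peaks were found at 14 of 21 cytosolic synthetases and 13 of 18 synthesis enzymes, and KO peaks at 3 of each.

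Stress response transcription factors and cofactors had a WT peak at 9 of 18 genes and a KO peak at 2, Atf5 and Cebpg. WT peaks alone were found at Ddit3 (736), Trib3, a pseudokinase that restrains ATF4 (540), Nupr1 (363), Jdp2 (233), Atf6 (77), Atf3 (54) and Bhlha15 (38). Of these 7, Nupr1 (77), Trib3 (58) and Ddit3 (40) were listed in KO +Leu. Atf4 itself had no peak within 5 kb in either genotype. Of 10 genes for eIF2α, its kinases, phosphatase subunits and GCN2 partners, Ppp1r15b was common (372 in WT, 66 in the KO), and Ppp1r15a was listed only in WT (1129). Eif2ak4, the gene for GCN2, had none.

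Regulators and effectors of mTORC1, the growth kinase that amino acids switch on, had a WT peak at 4 of 20 genes and a KO peak at 1, with none in common. Sesn2, a leucine sensor, scored 646 in WT, Eif4ebp1, the repressor of cap-dependent translation, 500, Ddit4, an inhibitor of mTORC1, 384, and Larp1, which represses 5′TOP mRNAs, 65. The Larp1 peak lay in the promoter at -342 bp and held the core, as printed above. Its site was also listed in WT +Leu, with a score of 80. At WT scores from 50 to under 100, 12 of 648 peaks (1.85%) had a KO partner, so the missing KO call does not set Larp1 apart. The KO peak was that of Castor1 (59), at -2225 bp and annotated to a gene end.

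In the other lists the KO counts were too small to set apart from the 1.61% of all genes. Autophagy genes had WT peaks at Sqstm1, the cargo receptor p62 (545), and Atg5 (23) of 16, and no KO peak. ER chaperones and folding genes had WT peaks at Herpud1 (866), Sel1l (542) and Hspa5, the chaperone BiP (135), of 16, and no KO peak. Glutathione and redox genes had WT peaks at 3 of 12, Chac1 (2515), Slc7a11 (77) and Gsr (30), and a KO peak at Chac1 alone. Secreted stress factors had WT peaks at 5 of 10, Gdf15 (413), Fgf21 (233), Adm2 (70, also listed in KO +Leu with 43), Stc2 (69) and Vegfa (67), and no KO peak.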

How the data were processed

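The series holds 6 samples, 4 ATF4 ChIP-seq libraries and 2 input libraries, and the 2 annotated peak lists of cells without leucine were compared. The 2 +Leu lists served to mark sites also listed with leucine, and the inputs were not used here. The authors trimmed the reads, aligned them to mm10 with BWA 0.7.12, used MACS2 2.1.0 to call peaks over the genotype's own input (false discovery rate 0.05), and annotated windows of 150 bp to either side of the summit with HOMER 4.7. The deposited score is the peak caller's and is not normalized between libraries. Base composition (GC and CpG) was deposited as a fraction. The GC fraction of every peak on assembled chromosomes (6362 in WT -Leu, 2658 in GCN2 KO -Leu) equalled that of GRCm38, whose sequence was then used.

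Centers were matched within 300 bp, target genes had a peak within 5 kb of a TSS, and TGATGCAA was searched within 50 bp of the center on both strands. Shares carry 95% Wilson intervals, and a share of 0 the limit of 3 counts. Members, gene lists and searches were chosen with earlier results of these data known. Genes named were those with the highest-scoring peak within 5 kb in each class (up to 20 matched, 15 WT-only, 10 KO-only), the 5 strongest peaks of a class at any distance, and list members with a peak. Tmem120a, Nr2e1, Lgals6, Zfp318, Mir3078, Sfi1, Axin2, Rpp21, the 8 KO-only peaks with the core and the peaks also in KO +Leu were singled out after their values were seen. Gene lists were matched through Entrez IDs. Depth is unknown from the lists, and with it how precise a score is. Matching and motif search were first tested on simulated data. The tools were samtools 1.23.1 for the reference, numba 0.67.0 for repeated 50-mers, matplotlib 3.10.9 for plots and, under Python 3.11.15, pandas 2.3.3, numpy 2.4.6, pysam 0.24.0 and scipy 1.17.1. Alternatives were other distances, a score of 30 or more, lists of equal length, assembled chromosomes, percentile ranks, other partners and other motif and promoter definitions.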

Additional observations from a re-analysis of the deposited data

How the results depend on the processing

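With 1 library per condition, no replicate could be left out. No paired analysis was possible because each genotype has a single library and no test was made. Of 38 values under alternatives, 14 stayed within the interval of the reported value and 24 moved out of it. The matched share of WT peaks was 0.894% with centers within 100 bp, 2.01% within 1000 bp and 2.32% in lists of equal length. That of KO peaks was 2.13%, 4.75% and 2.32%, and 3.81% at scores of 30 or more. Common genes were 7.57% of WT and 19.4% of KO target genes within 10 kb, 6.92% and 8.72% in lists of equal length, and 2.43% and 6.54% where a matched site was required. By percentile, 58.0% of matched sites stood higher in WT, against 77.8% by score. The core was at 8.77% of WT-only and 0.620% of KO-only peaks within 150 bp, and at 10.6% and 1.32% with any base at position 6. At scores of 30 or more, 10.9% of WT-only peaks held it. Promoter annotation alone gave 12.3% of matched, 3.86% of WT-only and 1.97% of KO-only peaks, and scores of 30 or more gave 7.88% of WT-only and 3.51% of KO-only peaks for the wider definition. The order of the classes held in each of these settings for the core and the promoter share.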
